A study of Mus musculus with 10 samples.

Results

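The genes described here are 9 mouse genes that carry, reduce, methylate or export arsenic: As3mt, Aqp3, Aqp7, Aqp9, Gsto1, Gsto2, Abcc1, Abcc2 and Pnp. They were chosen by function, and their members are the CpG cytosines of the deposited table that lie from 2 kb before to 2 kb after the RefSeq span of each gene. These were 547 of 2391795 cytosines, or 0.0229%, with 50 of them shared by the neighbours Gsto1 and Gsto2. The DNA came from whole mouse embryos of embryonic day 7.5, when the germ layers form, and was measured by reduced representation bisulfite sequencing (RRBS), which reads CpG-rich restriction fragments after bisulfite has converted unmethylated cytosines. The labels name 5 control embryos and 5 arsenic embryos of the study's experiment 2. The sample titles do not say whether each library came from 1 embryo. Of strain, sex, genotype, the arsenic compound, dose and timing nothing is stated in the labels used here. The deposited counts are named as those of F2 embryos, and the sample titles do not say whether the embryos themselves were exposed. The table numbers its libraries only 1 to 10, so none could be tied to an embryo or a group. All values therefore describe the 10 libraries together, and no comparison of arsenic with control embryos was made. Whole embryos mix embryonic and possibly extraembryonic cells, and a level is an average over them. The tissue label was not checked against marker genes, since DNA methylation gives no expression.

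Inorganic arsenic enters cells as arsenite through aquaglyceroporins, the water channels that also pass glycerol and other small neutral molecules, or as arsenate through phosphate transporters. Arsenate is reduced to arsenite, arsenite is methylated by the methyltransferase As3mt with S-adenosylmethionine as the methyl donor, and arsenic bound to glutathione is pumped out by ATP-driven exporters. Methylation at a promoter with many CpGs usually goes with a silent gene, while gene bodies are commonly methylated in silent and active genes alike.

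Each gene was read in 3 places: the 5' end and the 3' end, each the 2 kb on either side of that edge of the gene span, and the body between them. A place with fewer than 3 cytosines is called unmeasured. The level of a place is the mean over its cytosines of methylated reads over all reads, with the reads of the 10 libraries summed. Coverage per cytosine had a median of 30 to 42 reads over the libraries, both in the whole table and among the 547 cytosines, and library totals ran from 94583116 to 127102232 reads counted at CpGs. Of the 27 places, 22 were measured. The 5' ends of As3mt and Aqp9 and the 3' ends of As3mt, Aqp3 and Pnp were unmeasured. Over all autosomal protein-coding genes, 30.2% of 5' ends, 39.2% of bodies and 59.3% of 3' ends were unmeasured. Abcc1 has no entry in the promoter table that supplied strand, so its ends are named by coordinate. Whether a cytosine lies in an exon or an intron was not analysed here.

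Promoter sequence shows which CpGs lie at the gene starts, but not by itself which of them were read. The 5 promoters below are shown because 3 of them hold cytosines of the table and 2 hold CpGs of which none is in it. They are RefSeq sequences of GRCm38.p6 (mm10 coordinates), from 250 bases before to 50 bases after the start site, 5' to 3' on the strand of the gene, with every CpG in capitals.
Gsto1, plus strand, chr19:47854723-47855022: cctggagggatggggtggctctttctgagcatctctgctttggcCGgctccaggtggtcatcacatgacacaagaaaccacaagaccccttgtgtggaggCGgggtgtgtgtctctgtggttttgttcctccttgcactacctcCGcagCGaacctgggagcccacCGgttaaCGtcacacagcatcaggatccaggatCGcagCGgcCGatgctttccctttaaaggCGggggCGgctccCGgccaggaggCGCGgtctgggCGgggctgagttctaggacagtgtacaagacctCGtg
Gsto2, plus strand, the downstream of 2 start sites, chr19:47865544-47865843: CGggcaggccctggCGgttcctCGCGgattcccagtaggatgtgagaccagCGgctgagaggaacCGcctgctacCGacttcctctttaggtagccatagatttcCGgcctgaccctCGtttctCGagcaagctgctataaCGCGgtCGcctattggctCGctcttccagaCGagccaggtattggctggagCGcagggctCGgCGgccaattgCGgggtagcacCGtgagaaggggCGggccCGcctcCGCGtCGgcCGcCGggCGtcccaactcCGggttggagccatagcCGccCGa
Pnp, plus strand, chr14:50944053-50944352: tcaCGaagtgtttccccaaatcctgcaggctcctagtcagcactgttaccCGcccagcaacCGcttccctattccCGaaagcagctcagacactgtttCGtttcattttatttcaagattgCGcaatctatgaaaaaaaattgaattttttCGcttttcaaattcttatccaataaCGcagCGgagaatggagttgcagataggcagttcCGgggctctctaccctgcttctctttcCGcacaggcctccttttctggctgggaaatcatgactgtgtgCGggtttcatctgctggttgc
As3mt, plus strand, chr19:46707208-46707507: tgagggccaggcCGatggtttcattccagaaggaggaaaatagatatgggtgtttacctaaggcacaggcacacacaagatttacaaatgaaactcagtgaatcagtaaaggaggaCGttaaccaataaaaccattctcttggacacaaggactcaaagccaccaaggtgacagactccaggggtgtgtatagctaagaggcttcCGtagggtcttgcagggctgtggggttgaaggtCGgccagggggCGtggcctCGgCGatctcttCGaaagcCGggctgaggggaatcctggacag
Aqp3, minus strand, chr4:41098134-41098433: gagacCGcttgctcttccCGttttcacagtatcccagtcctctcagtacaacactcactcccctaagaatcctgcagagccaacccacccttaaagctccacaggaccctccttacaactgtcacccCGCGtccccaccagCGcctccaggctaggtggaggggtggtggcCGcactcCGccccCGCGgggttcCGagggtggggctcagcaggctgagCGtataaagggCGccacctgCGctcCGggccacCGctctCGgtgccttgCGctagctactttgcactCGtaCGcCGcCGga
The Gsto2 promoter held 31 CpGs, more than 89.4% of the 32851 promoters of the table, and 27 of them were measured. In the Gsto1 promoter 9 of 16 CpGs were measured, and in the Pnp promoter 2 of 12. Neither the 9 CpGs of the As3mt promoter nor the 21 of the Aqp3 promoter had a cytosine in the count table, which keeps only cytosines with at least 10 reads in every library. A second Gsto2 promoter, of a start site further upstream than the printed one, held 20 CpGs, of which 4 were measured, at 0.465% (0% to 1.59%, median 0%). The remaining promoters were poor in CpGs: Abcc2 had 1, the 2 promoters of Aqp7 had 0 and 3, and the 2 of Aqp9 had 1 and 4, and none of these 5 was measured. The median over all promoters was 7 CpGs.

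The motif CCGG, cut by the enzyme MspI that is commonly used for RRBS, was searched in each promoter; it reads the same on both strands. No source used here names the enzyme of this study. CCGG was found in 52.8% of all promoters, and 65.1% of these had a measured cytosine, against 1.19% of promoters without it. The promoters of Gsto1, Gsto2, Pnp, As3mt and Aqp3 held it, and those of Aqp7, Aqp9 and Abcc2 did not. The antioxidant response motif TGACNNNGC, searched on both strands, was found in the Abcc2 promoter alone among the members, once, and in 12.4% of all promoters. The GC box GGGCGG, searched on both strands, was found in 35.7% of all promoters and, among the members, in those of Gsto1 (2 matches), the downstream promoter of Gsto2 (2), Aqp3 (1) and Pnp (1). A match is a description of the letters, and does not show binding. The motifs were counted independently, so a base can belong to more than 1 match.

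Among the genes of arsenic reduction, the starts of Gsto1, Gsto2 and Pnp were almost free of methylation, while their bodies were methylated. Gsto1, on chromosome 19 (47854973 to 47864790), encodes a glutathione transferase of the omega class that reduces pentavalent arsenic. From its start to 250 bp inside the gene, 27 cytosines had a level of 0.311%. The lowest library was at 0%, the median library at 0.202% and the highest at 0.794%. Of 7191 autosomal protein-coding genes with a cytosine in the same 250 bp, 2.45% were lower, and the median was 1.21%. Levels were higher further from the start on both sides. The cytosines on the upstream side all lie in Gm30021, a gene with a gap of 56 bp to Gsto1. The 250 bp before the start were at 2.09% (libraries 0% to 7.04%, median 1.91%), the next 250 bp at 17.0% (9.72% to 33.3%, median 17.7%) and those from 500 to 750 bp upstream at 24.4% (18.1% to 29.5%). At 1843 to 2010 bp inside the gene the 6 CpGs were at 78.0% (72.2% to 82.0%, median 79.7%). No library at these CpGs overlapped the libraries at the start. The single value of 17.9% for the whole 5' end of Gsto1 (16.8% to 19.1%, 58 cytosines) thus joins an unmethylated start to methylated flanks. It was 7.03% within 1 kb of the gene edge, 2.00% within 500 bp and 32.4% when every read was weighted alike. Without cytosines inside other genes, which leaves none upstream, it was 19.6%.

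The body of Gsto1 was at 75.5% over 30 cytosines, with libraries from 69.7% to 79.7% and a median library of 76.8%. Its 3' end could not be told apart from the start of the next gene. Gsto2, another omega-class transferase, which also reduces dehydroascorbate, begins 647 bp behind Gsto1 on the same strand (47865438 to 47886308). All 50 measured cytosines of the Gsto1 3' end are those of the Gsto2 5' end, in the promoter printed above. They were at 0.661% (0% to 1.61%, median 0.552%), and 0.607% of their 17790 reads were methylated, with a 95% Wilson interval from 0.503% to 0.732%. Such intervals cover counting error only. They understate it, because 1 read can be counted at several CpGs and no molecular identifiers mark PCR copies. Among all genes, 0.284% of 3' ends and 2.25% of 5' ends were lower than this level, and the median 5' end was at 4.94%.

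The body of Gsto2 was lower than that of Gsto1, at 54.9% over 35 cytosines (45.4% to 60.5%, median 55.1%), and no library of either gene reached the range of the other. Neighbouring cytosines within it differed widely, from 16.7% to 77.6%. In 1 stretch of 302 bp (47871851 to 47872152) 10 CpGs covered this whole range at a mean of 53.2% (42.1% to 59.3%, median 53.7%). The 3' end of Gsto2 was at 60.8% (53.9% to 65.7%, median 60.8%).

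Pnp, on chromosome 14 (50944303 to 50953412), encodes purine nucleoside phosphorylase, which can support arsenate reduction when thiols are present. A stretch of 26 CpGs from 12 bp before to 498 bp after its start was at 1.35% (0.552% to 2.45%, median 1.07%; 8937 reads, 1.34% methylated). Further upstream, 4 cytosines at 1159 to 1442 bp before the start were at 71.9% (63.7% to 75.9%, median 72.3%). At 1250 to 1500 bp upstream the level of 74.6% stood above that of 91.4% of 1277 genes with a cytosine at that distance, whose median was 46.6%. The 5' end as a whole was at 10.5% (9.89% to 11.8%, median 10.3%), but at 1.35% within 1 kb of the edge and 20.8% with reads weighted alike. Without the cytosines that also lie in Gm52117, a gene that overlaps the start of Pnp, only the upstream 71.9% is left. In the body, 3 cytosines at 6408 to 6570 bp from the start were at 77.4% (67.6% to 84.4%, median 80.0%).

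**Figure D1:**
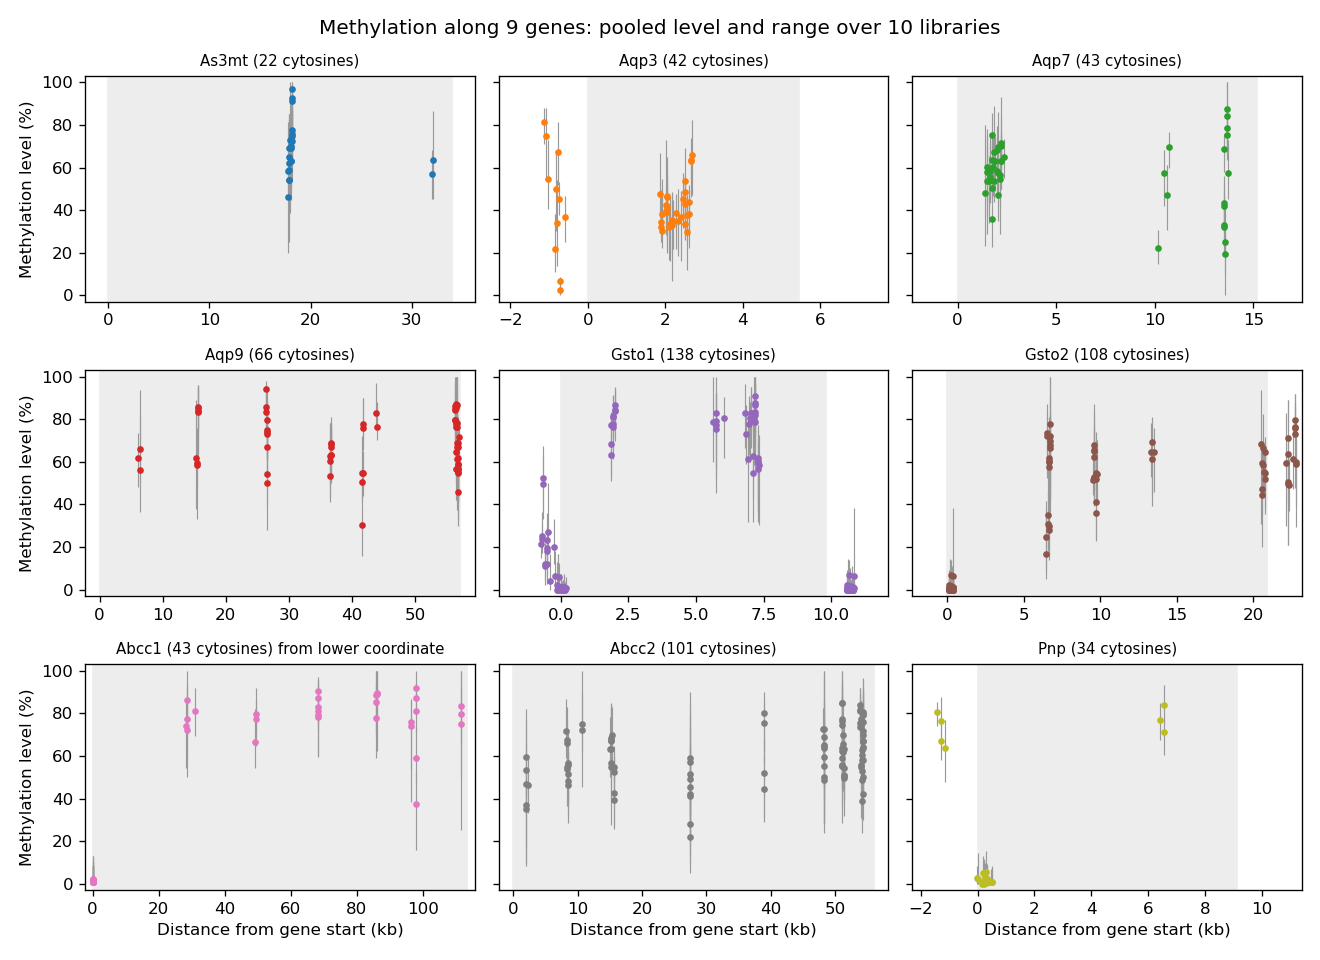
Methylation along the 9 genes. Points are cytosines by distance from the 5' edge of the gene span in kb (for Abcc1 from the lower coordinate), at their level in % pooled over 10 libraries, vertical lines run from the lowest to the highest library, and grey marks the gene span. Gsto1, Gsto2, Abcc1 and Pnp have cytosines near 0% close to distance 0, and As3mt, Aqp3, Aqp7, Aqp9 and Abcc2 have none within 500 bp of it. The body cytosines of each gene lie mostly above 30%.

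As3mt encodes arsenite methyltransferase, the enzyme that turns arsenite into mono- and dimethylated arsenicals. It lies on chromosome 19 (46707157 to 46741099), and between 2 kb before its 5' edge and 17811 bp inside no cytosine was in the table. Its methylation is known here from 1 stretch of 382 bp, 17811 to 18192 bp inside the gene (46724968 to 46725349). These 20 cytosines at 11 CpGs were at 69.5%, with libraries from 64.1% to 78.5% and a median library of 69.7%. Levels were higher toward the 3' side of the stretch. The cytosines of the first CpG were at 58.4% and 46.3%, and the last cytosine was at 97.1%, where the libraries ran from 91.2% to 100%. The last 3 cytosines were all above 90%. Of 10010 protein-coding bodies 66.1% were lower than As3mt. Another 2 cytosines near the 3' edge, too few to count as measured, were at 56.8% and 63.6%. By its body alone As3mt lay closest to Cept1, Lmf1 and Rab28, each within 0.01 points, but 402 genes (4.02%) lay within 1 point of it, so this likeness singles out no gene.

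The aquaglyceroporins, which let arsenite in, were methylated at intermediate to high levels in every place measured, and none of their start sites was read. Aqp3, a glycerol channel of epithelia, lies on the minus strand of chromosome 4 (41092724 to 41098183). Its promoter holds many CpGs, but the nearest measured cytosine was 585 bp upstream. Levels were higher further from the gene: 22.8% at 500 to 750 bp upstream (19.9% to 27.1%, median 22.5%), 43.3% at 750 to 1000 bp (30.7% to 53.4%, median 44.9%) and 70.4% at 1000 to 1250 bp (61.1% to 81.7%, median 70.2%). The ranges over libraries of these 3 intervals did not overlap. The order was uneven within these intervals: both cytosines of 1 CpG, 708 and 709 bp upstream, were at 2.62% and 6.49%, and the cytosine 773 bp upstream was at 67.4%. Inside the gene, a stretch of 19 CpGs over 827 bp (41095482 to 41096308) was at 41.4% (36.2% to 47.0%, median 41.2%), with single cytosines from 29.7% to 65.8%. This was the lowest of the 35 distinct stretches of at least 3 cytosines (gaps of at most 500 bp) that lay over 1 kb from the start of their gene. Of those 35 stretches 31 were over 50%, with a median of 63.9%. No share of such stretches over all genes was computed, but 75.2% of all bodies and 66.8% of all 3' ends were over 50%. The body of Aqp3, at 42.3%, was the only body of the 9 under 50%, and 15.9% of all bodies were lower. Its 5' end as a whole was at 41.2% (37.5% to 44.4%, median 41.8%), and at 24.0% where only CpGs read on both strands were used.

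Aqp7, a glycerol channel best known from fat, lies on the same chromosome and strand (41033074 to 41048237). Its nearest measured cytosine was 1394 bp inside the gene. The 16 cytosines of the 5' end, all from there to 1991 bp inside, were at 57.8% (50.3% to 61.0%, median 58.7%), higher than 93.5% of 5' ends of all genes. Compared at matched distance the contrast was smaller: at 1250 to 1500 bp the level of 55.0% exceeded that of 81.8% of genes. At 1500 to 1750 bp the level of 52.8% exceeded that of 72.2% of genes, and at 1750 to 2000 bp 64.6% exceeded that of 80.9%. The body was at 58.2% (55.2% to 61.8%, median 58.5%) and the 3' end at 53.8% (46.3% to 59.9%, median 54.9%), so the ranges of the 3 places of Aqp7 overlapped. Within the 3' end, 7 CpGs in 239 bp ran from 19.3% to 87.7%.

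Aqp9, the arsenite channel of liver cells and leukocytes, lies on the minus strand of chromosome 9 (71110659 to 71167849). Both RefSeq start sites lie inside the span, at 71163289 and 71162633, and the nearest measured cytosines, 3 of them within 2 kb of these sites, were at 61.4%. All 7 stretches of Aqp9 were over 50%, from 57.2% (50.5% to 65.2%, median 56.5%) to 79.6% (74.6% to 90.2%, median 78.6%), the latter over only 2 cytosines. Most bodies and 3' ends of all genes were also over 50% (75.2% and 66.8%). The body of Aqp9 was at 68.0% (64.7% to 71.8%, median 68.2%). At the 3' end 16 CpGs in 695 bp (71110836 to 71111530) were at 70.7% (66.7% to 74.6%, median 71.3%), with single cytosines from 45.9% to 87.0%. This stretch has the most cytosines of the gene and lies at its 3' end, over 50 kb from the start sites.

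**Figure D2:**
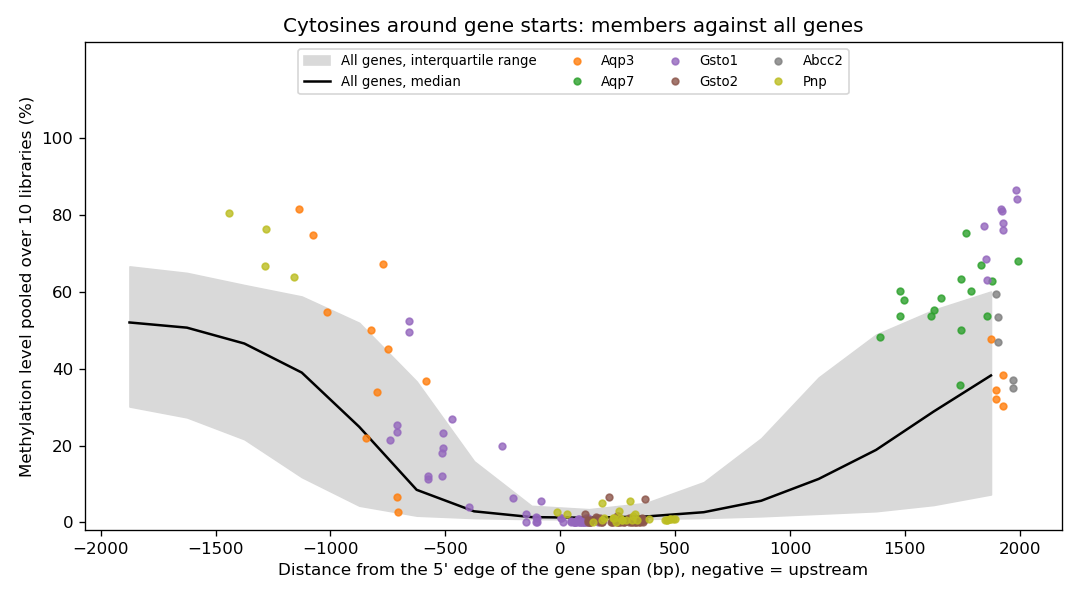
Methylation around gene starts. Points are single cytosines of the members by distance in bp from the 5' edge of the gene span, at their level in % pooled over 10 libraries, and the line and grey band are the median and interquartile range over autosomal protein-coding genes in bins of 250 bp. Cytosines of Gsto1, Gsto2 and Pnp near the start follow the low median of all genes, while the nearest cytosines of Aqp7 and Abcc2 lie over 1 kb inside the gene.

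For the exporters, the lower-coordinate end of Abcc1 and the 5' end of Abcc2 were read at unlike distances from the gene edge. Their levels are therefore not set against each other. Over all genes the median was 1.21% at 0 to 250 bp inside and 38.3% at 1750 to 2000 bp. Abcc1, which pumps glutathione conjugates out of most cell types, lies on chromosome 16 (14361453 to 14474878). At its lower-coordinate edge 14 cytosines within 129 bp, all on the minus strand, were at 1.15% (0% to 8.46%, median 0.738%). The highest value came from library 10 alone. There, 13 of the 14 cytosines had a methylated read. Summed over the 14 cytosines, 28 of 332 reads were methylated, but 1 read can be counted at several of them, so these may be the same few reads. At most 3 of the 23 to 24 reads at any cytosine were methylated. The other 9 libraries lay between 0% and 1.39%, and without library 10 the level was 0.507%. The body of Abcc1 was at 78.9% (76.5% to 82.0%, median 79.3%), the highest of the 9 bodies, and 86.3% of all bodies were lower. It was not the highest with a coverage minimum of 20, where it was at 75.5% and Pnp at 77.4%, nor with only CpGs read on both strands, where it was at 73.8% and Gsto1 at 75.4%. The stretches within it reached 86.1% (79.7% to 95.6%, median 85.6%) over 5 cytosines at 14447225 to 14447524. The higher-coordinate end was at 79.6% over only 3 cytosines, and its libraries ran from 50% to 94.4% with a median of 82.6%. In the lowest, 36 reads summed over the 3 cytosines gave a 95% Wilson interval of 34.5% to 65.5%, so this end is poorly resolved.

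Abcc2, the exporter of the apical membrane that carries arsenic conjugates into bile, lies on chromosome 19 (43782308 to 43838332). No cytosine within 1896 bp of its start was measured. The 5 cytosines at 1897 to 1973 bp inside, which alone make up its 5' end, were at 46.5%, with a highest library at 62.3% and a median library at 46.4%. In the lowest library 28.6% of 105 reads, summed over the 5 cytosines, were methylated, with an interval of 20.8% to 37.8%. Of 1797 genes with a cytosine at 1750 to 2000 bp inside, 56.9% were lower. The body was at 60.4% over 73 cytosines (55.4% to 65.2%, median 60.6%) and the 3' end at 63.2% (57.0% to 71.4%, median 62.5%). The lowest stretch of Abcc2 within the body, 6 CpGs at 43809706 to 43809837, was at 43.9% (32.1% to 56.9%, median 44.5%).

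**Figure D3:**
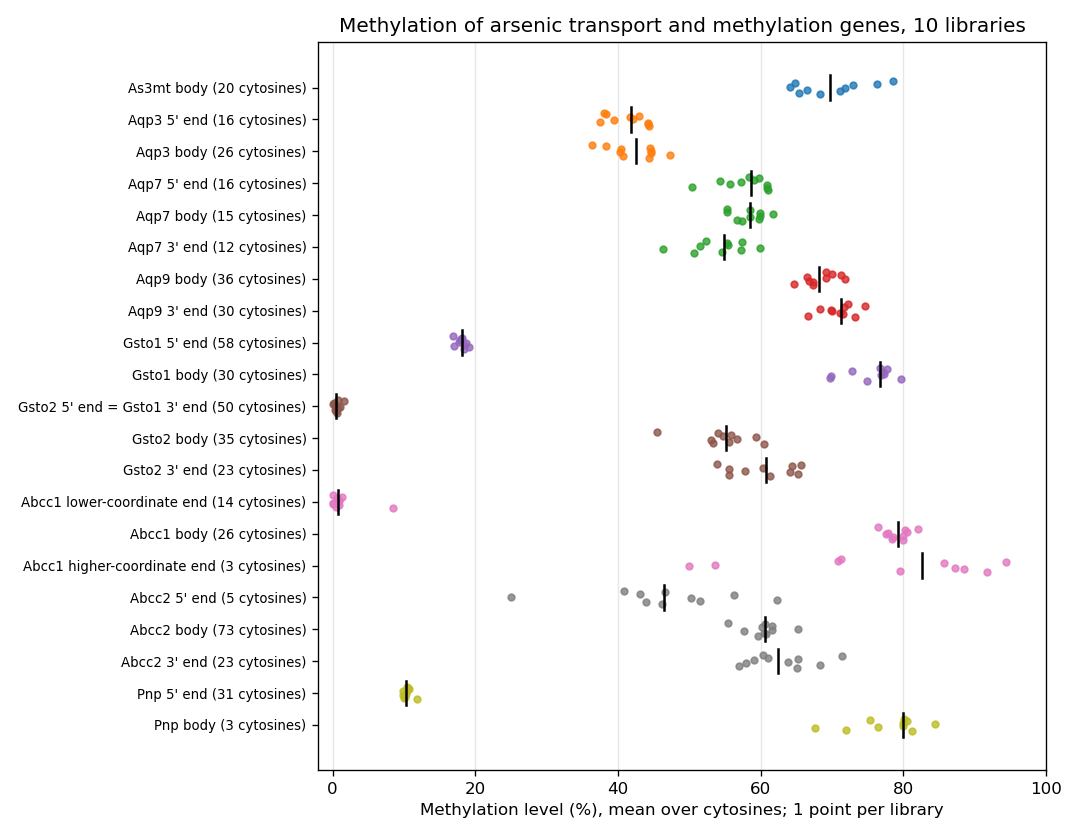
Methylation of the measured places in each library. Each point is 1 of the 10 libraries, the x axis is the mean level over the cytosines of the place in %, the bar is the median library, and the Gsto1 3' end, made of the same cytosines as the Gsto2 5' end, is drawn once. The libraries of the Gsto2 5' end and of the Abcc1 lower-coordinate end stay under 10%, and those of the 9 bodies lie over 30%.

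Counted over the measured places, 8 of 9 bodies were over 50% methylated, where 75.2% of all 10010 bodies were. Of 6 measured 5' ends 1 was under 5% (Gsto2), where 50.2% of 11489 genes were, and 1 was over 50% (Aqp7), where 10.6% were. These counts depend on the window: within 500 bp of the start 3 of 3 measured 5' ends were under 5% (Gsto1 at 2.00%, Gsto2 at 0.661%, Pnp at 1.35%) and 0 over 50%, where 75% of 9422 genes were under 5% and 5.64% over 50%. Of the 6, only Gsto1, Gsto2 and Pnp had a cytosine within 500 bp of the start, so the other 3 values do not describe promoters, and none of the 3 with such a cytosine was over 50%. Of 5 measured 3' ends 4 were over 50%, against 66.8% of 6700, and the fifth was that of Gsto1. Ordered by level, the bodies ran from Aqp3 through Gsto2, Aqp7, Abcc2, Aqp9, As3mt, Gsto1 and Pnp to Abcc1. The ranges over libraries of all neighbours in this order overlapped. Aqp3, at most 47.3%, met Gsto2 only through the lowest library of Gsto2, at 45.4%, whose next library was at 53.0%.

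The range from the lowest to the highest library had a median of 10.04 points over the 21 distinct places, the Gsto1 3' end and Gsto2 5' end being counted once. It ran from 1.61 points at the Gsto2 5' end to 44.4 points at the higher-coordinate end of Abcc1. The lower-coordinate end of Abcc1 spanned 8.46 points through library 10 alone, under the median range but over the 5.50 points of the Abcc1 body. Without library 10 the libraries at that end lay between 0% and 1.39%. Library 1 alone was the lowest at 6 of the 21 places, and libraries 2 and 10 were the highest at 5 each. At the 171 CpGs of these genes read on both strands, the strands differed by a median of 2.32 points and by over 20 points at 1 CpG.

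**Figure D4:**
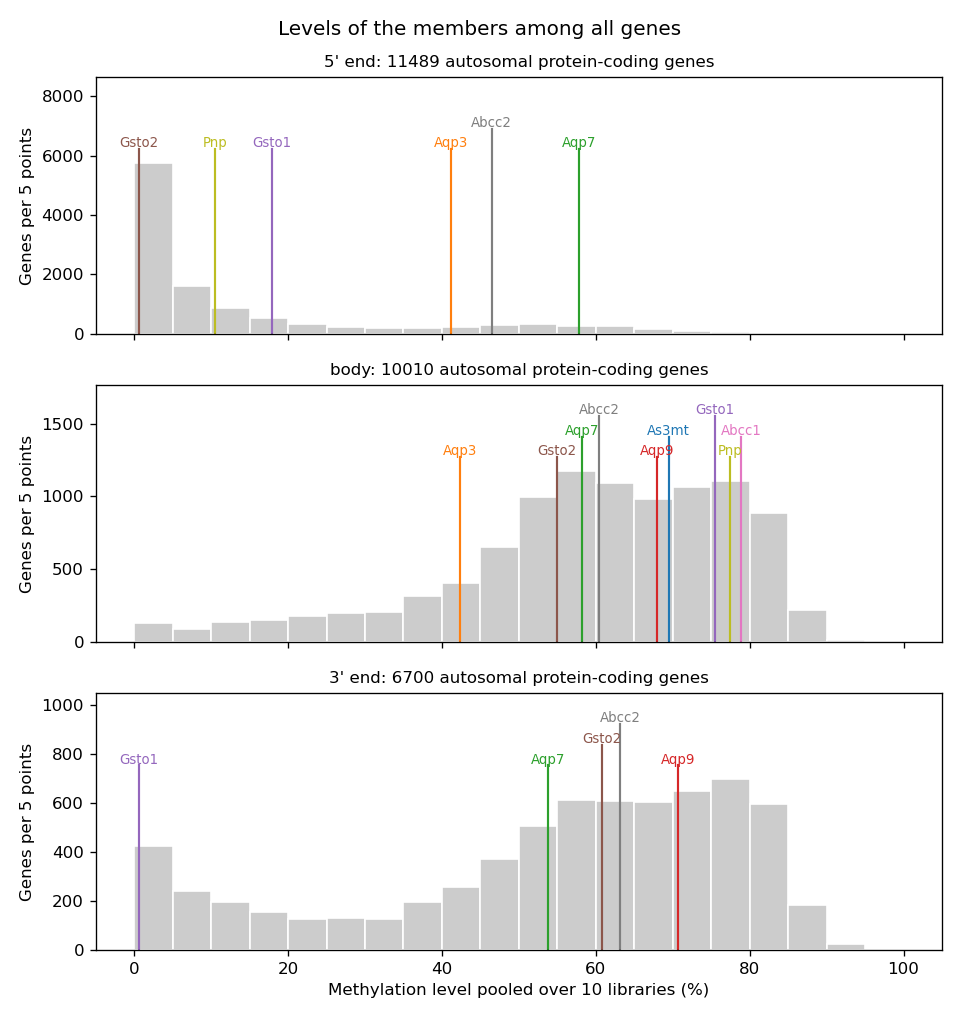
Levels of the members among all genes. Grey bars count autosomal protein-coding genes per 5 points of level, pooled over 10 libraries, for the 5' end, the body and the 3' end, and coloured lines mark the members, Abcc1 only by its body. Gsto2 stands in the lowest bar of the 5' ends, Aqp7 lies above 50%, and the bodies other than Aqp3 lie between 50 and 80%.

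Related genes were taken from 5 lists with 53 genes, of which 42 had a strand and 34 a measured 5' end. The lists group genes by family or function, and whether each gene handles arsenic was not checked. Of these 34, 13 were under 5% and 6 over 50%, where 50.2% and 10.6% of all genes were, with a median of 10.4%, against 4.94% over all genes. When each library was left out in turn, the count over 50% ran from 5 to 7. Within 500 bp of the start, 21 of 30 were under 5% and 3 over 50%, where 75% and 5.64% of all genes were. The lists differed among themselves in their medians. Of the other aquaporins 0 of 5 were under 5% and 3 were over 50%, with a median of 51.5%. They ran from Aqp5 at 18.0% (15.6% to 20.2%, median 18.4%; 141 cytosines) to Aqp2 at 66.6% (55.5% to 75.4%, median 67.3%; only 5 cytosines). The others over 50% were Aqp8, with 3 cytosines, and Aqp6, with 21. As with the members, a 5' end need not hold cytosines near the start, so these levels need not describe promoters. Carriers of other families, which take up phosphate or sugar and can pass arsenate or arsenite, were split. Slc20a1, a phosphate transporter of many tissues, was lowest at 1.20% (0.718% to 2.93%, median 1.03%), and Slc34a1, that of the kidney, highest at 50.7% (46.3% to 56.6%, median 51.8%), with 2 of 5 under 5% and a list median of 44.2%.

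Among other exporters 1 of 5 was under 5%, and the list median was 13.0%. Abcc4, an exporter of organic anions, was at 0.826% (0.260% to 2.70%, median 0.567%), and Abcb6, a porphyrin transporter, at 26.9% (23.9% to 31.4%, median 26.8%). The genes of glutathione, thioredoxin and related enzymes, which supply thiols and reduce arsenicals, had 7 of 11 5' ends under 5%, not far from the 50.2% of all genes, and a median of 2.45%. Txn1, encoding thioredoxin, was at 0.608% (0.240% to 1.17%, median 0.563%), while Gstp2, a glutathione transferase gene beside Gstp1, was at 57.9% (50.4% to 65.3%, median 59.1%). Of the 8 genes of methyl donors and other methyltransferases 3 were under 5% and 0 were over 50%, with a median of 5.58%. Mat2a, which makes S-adenosylmethionine, was at 0.896% (0.669% to 1.17%, median 0.874%), and N6amt1, a methyltransferase reported to act on arsenicals, at 26.5% (23.2% to 28.7%, median 26.8%). Near-identical genes such as Gstp1 and Gstp2 may share reads, which was not tested. The level of Slc34a1 rests on 8 cytosines and that of Gstp2 on 9, against 79 at Slc20a1 and 30 at Txn1.

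**Figure D5:**
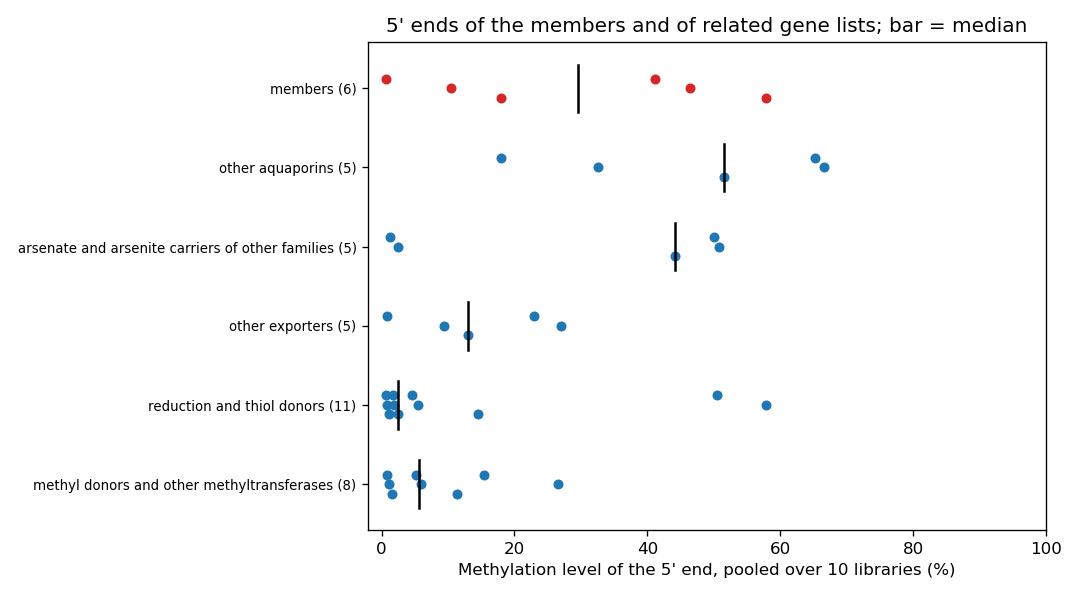
Methylation of 5' ends in related gene lists. Each point is a gene, placed by the level of its 5' end in % pooled over 10 libraries, the bar is the median of the list, and numbers in parentheses count measured genes. The reduction and thiol list has 7 of 11 genes under 5%, while 3 of 5 other aquaporins lie above 50%.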

How the data were processed

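DNA methylation of 10 libraries from E7.5 mouse embryos was analysed. The deposited values are read counts per CpG cytosine (coverage, methylated and unmethylated reads), not normalized, with the column names of methylKit, per the file headers. Trim Galore, Bismark, methylKit and mm10 are named in the submitters' processing notes; no source used here states versions, settings, deduplication or how overlapping mates were counted, and a fragment counted more than once would make counts look too precise. Methylated and unmethylated counts summed to the coverage at every cytosine, and every cytosine had at least 10 reads in every library, so thinly read positions are missing. All 30 per-sample columns carry only numbers and were matched to no sample, so no group comparison and no test was made, and no mean with SD is given. Depth is given as reads, and Wilson 95% intervals as counting error.

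Gene spans came from the RefSeq table of GRCm38.p6, and all 9 genes matched by symbol. Strand, start sites and promoter sequences came from the RefSeq promoter table, in which 8 of the 9 had entries; 99.995% of the 180994 table cytosines inside its promoters fell on a CpG of the sequence, counted once per promoter. Cytosines within 2 kb of both edges went to the nearer one. The background was all autosomal protein-coding genes with a strand. Members and lists were chosen with earlier results of these data known. Every member was named; of each list the lowest and highest 5' end were named, and the 3 genes nearest to As3mt over the places it has. Motifs, stretches and distance bins were chosen after the data were seen. The assignment of cytosines to places was tested on simulated data. Python 3.11.15, NumPy 2.4.6, pandas 2.3.3 and SciPy 1.17.1 were used.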

Additional observations from a re-analysis of the deposited data

Results flagged for a closer look

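The 10 libraries of each measured place were checked for a library far from the others, the gap to its nearest neighbour, as a share of the whole range, being over Dixon's critical value for 10 values at the 95% level. Chance alone marks about 1 in 20 sets of values, the libraries mix control and arsenic embryos, and 22 places were checked. At the lower-coordinate end of Abcc1 library 10 was at 8.46% and the next at 1.39%. At the 5' end of Pnp library 10 was at 11.8% and the next at 10.7%. In the body of Gsto2 library 1 was lowest at 45.4%, with the next at 53.0%. No cause was tested.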

How the results depend on the processing

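No paired analysis was possible because the columns carry no replicate number of the labels, and no comparison of groups was made. Leaving out each library in turn moved no level by more than 1.97 points. Member gene ends (5' ends, 3' ends and both ends of Abcc1 together) over 50% numbered 6 of 13. Within 1 kb of the gene edge they were 2 of 8 and within 500 bp 2 of 6, since fewer ends are measured in narrower windows. Ends under 5% numbered 3 of 13, 4 of 8 and 4 of 6. The 3 of 13 and the 4 of 8 count the Gsto1 3' end and the Gsto2 5' end apart, though these share their cytosines. For ends pooled in this way no share over all genes was computed. In the 2 kb windows of all genes, 10.6% of 5' ends and 66.8% of 3' ends were over 50%, and 50.2% of 5' ends were under 5%. Within 500 bp, 5' ends alone numbered 3 of 3 under 5% and 0 over 50%, against 1 and 1 of 6. Among 5' ends the count over 50% went from 1 to 0 without those whose nearest cytosine is over 500 bp from the start, a setting chosen after seeing the data. Of the related lists, within 500 bp, 21 of 30 5' ends were under 5% and 3 over 50%, against 13 and 6 of 34. Levels that moved by more than the SD of the libraries numbered 4 with a coverage minimum of 20 (Gsto1 5' end 24.6%), 4 with reads weighted alike, 3 within 1 kb, 4 within 500 bp, 4 with strands merged and 2 without cytosines inside other genes; the widest shift was that of the Pnp 5' end to 71.9%. Placing the 5' end at RefSeq start sites, added after seeing the data, moved none of the 6 by more than that SD. In that setting the Aqp9 5' end was measured as well, at 61.4%, which would add to the 5' ends over 50%. With a coverage minimum of 20, 5 of the 22 places could not be measured (the bodies of As3mt and Gsto1, both ends of Abcc1 and the Abcc2 5' end), and the table's own minimum of 10 hides cytosines read less.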
